A study of Homo sapiens with 2 samples.

Results

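Arginase 2 and the enzymes of polyamine metabolism were followed in H322c cells, an established NSCLC cell line, through all probe sets on the array whose single annotated gene was ARG2, ODC1, AMD1, SRM, SMS, SAT1, SMOX, PAOX, OAZ1 or AZIN1. These 10 genes, of 19775 with a probe set of their own, were selected on their signal ratios in the same comparison, so the counts below describe them and test nothing. RNA came from cells kept for 4 days in 1 µM gefitinib, which inhibits the EGFR kinase, or for 4 days in 0.1% DMSO, the vehicle control, and all cells had been plated 24 hrs before drug or vehicle was added. Each condition was hybridised to 1 Affymetrix U133 Plus 2.0 array. No replicate and no test was therefore available, p-values are not given, and every difference is between these 2 arrays of a single cell line.

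Polyamines are small positively charged molecules that bind nucleic acids and are needed for cell growth. Arginase splits arginine to ornithine and urea, and ornithine decarboxylase (ODC1) turns ornithine to putrescine, the step that is most tightly controlled. Spermidine synthase (SRM) and spermine synthase (SMS) then add aminopropyl groups supplied by S-adenosylmethionine decarboxylase (AMD1). The acetyltransferase SAT1 and the oxidases SMOX and PAOX run the pathway backwards, while antizyme (OAZ1) sends ODC1 protein to the proteasome and the antizyme inhibitor AZIN1 spares it. ODC1 is a textbook target of the transcription factor MYC and of growth factor signaling.

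Values are MAS5 signal intensities on a linear scale, in which the 2% trimmed mean of each array was 500. Signals under 100 were set to this floor for ratios, and a gene counted as measured if any of its probe sets came up to the floor on either array. The brightest measured probe set over both arrays stands for the gene, and a difference was counted from 2-fold. All 10 genes were measured, 9 of them with both signals at the floor or over it. On the gefitinib array 4 of the 10 (ARG2, SRM, SMOX and SAT1) were at least 2-fold lower, where 6.20% of 11223 measured genes were, and 1 (PAOX) was at least 2-fold higher, where 13.3% were. With the arrays scaled to the spike-ins these shares of all genes were 9.24% lower and 9.56% higher, and with scaling to GAPDH they were 4.37% lower and 17.7% higher. The remaining 5 of the 10 were within 2-fold. The log2 ratio, gefitinib over DMSO throughout, was below 0 for 8 of the 10 genes, where 43.0% of all measured genes were below 0. The median log2 ratio of the 10 was -0.73, where that of all measured genes was 0.12.

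By probe set, the genes had 22, of which 18 were measured and 4 never came up to the floor. Of the 18, 15 had a lower and 3 a higher signal with gefitinib. At least 2-fold lower were 7, where 7.26% of 20172 measured probe sets were, and at least 2-fold higher was 1, where 12.1% were. A further probe set, 210593_at, is annotated to both SAT1 and ZSWIM8 and was left out, with signals of 18.7 with gefitinib and 10.7 with DMSO.

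**Figure D1:**
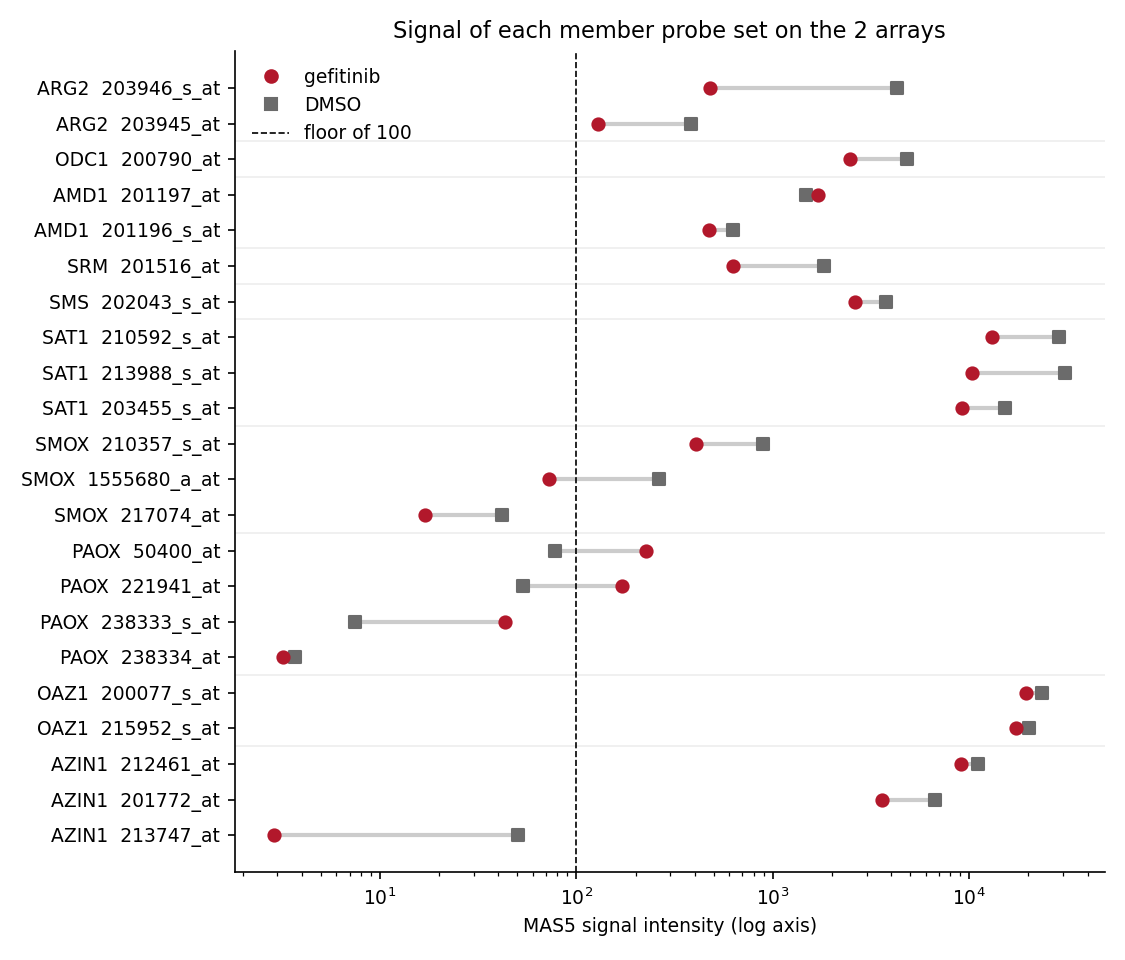
MAS5 signal (horizontal log axis) of the 22 probe sets of the 10 genes on the gefitinib array (red circles) and the DMSO array (grey squares), 1 array per condition, with the floor of 100 as a dashed line. The longest bar to the right of the floor is that of ARG2 203946_s_at, and both PAOX probe sets that cross the floor have the red point on the right.

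The control probe sets describe the hybridizations behind these values. The 18 spike-in probe sets had a mean log2 ratio of 0.19 (SD 0.16 between probe sets), and the 3' over 5' signal ratio, a measure of RNA integrity that goes up with degradation, was 1.01 with gefitinib and 0.95 with DMSO for GAPDH and 1.36 with gefitinib and 1.19 with DMSO for ACTB. All 6 epithelial markers reached the floor (summed signal 111234 with gefitinib and 136016 with DMSO), against 1 of 6 fibroblast markers (1014.6 and 627.9), 2 of 6 endothelial markers (615.9 and 187.5) and none of 5 leukocyte (122.0 and 87.2) or 6 hepatocyte markers (92.4 and 164.0), each pair being summed signals with gefitinib and with DMSO. COL1A1, PECAM1 and VWF were the fibroblast and endothelial markers that reached it. The highest signal of VWF was 496.0 with gefitinib and 30.0 with DMSO. That of COL1A1 was 950.2 with gefitinib and 531.4 with DMSO, and that of PECAM1 was 78.0 with gefitinib and 128.4 with DMSO. All other fibroblast, endothelial and leukocyte markers with a probe set, among them COL1A2, COL3A1, CDH5 and PTPRC, stayed under the floor on each array. All RNA came from cultures of the H322c line, and the source of these marker signals was not tested. In bulk RNA, a transcript lower in every cell and one present in fewer cells cannot be told apart. For 4610 genes that had more than 1 probe set with both signals at the floor or over it, log2 ratios of the same gene had an SD of 0.54. No other error can be had from 1 array per condition, and the spread from culture to culture is unknown.

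At the head of the pathway, ARG2, the mitochondrial arginase, had the log2 ratio furthest from 0 of the 10 genes. Probe set 203946_s_at had a signal of 476.0 with gefitinib and 4262.0 with DMSO, 8.95-fold lower (log2 ratio -3.16). Its second probe set, 203945_at, had 129.1 with gefitinib and 383.4 with DMSO, 2.97-fold lower (log2 ratio -1.57). Both probe sets were thus lower with gefitinib, but the log2 ratios differed by 1.59. Their SD of 1.13 was above the SD of 0.54 between probe sets of a gene, and the gefitinib signal of 203945_at lay close to the floor. The mean over both was -2.37. In the order of 10190 genes with neither signal under the floor, ARG2 stood at 13 from the lowest. The genes nearest to it in log2 ratio, the only measure of likeness that 2 arrays allow, were UBASH3B (-3.24) and the urokinase receptor PLAUR (-3.23) before it and the cytokine LIF (-3.09) and the transcriptional repressor BHLHE40 (-3.06) after it. ARG1, the cytosolic arginase of liver, was below the floor on both arrays at each of its 4 probe sets, whose highest signals were 12.7 with gefitinib and 15.2 with DMSO. ARG2 was therefore the arginase whose transcript was detected above the floor in these cells.

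ODC1, which makes putrescine, was lower by a smaller ratio than ARG2. Its single probe set, 200790_at, had a signal of 2468.3 with gefitinib and 4790.0 with DMSO, 1.94-fold lower (log2 ratio -0.96). This value lay just inside 2-fold, and it passed 2-fold (-1.15) with spike-in scaling.

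The DNA before the start sites of these genes was read from RefSeq (GRCh38.p14). For 7 of the 10 genes 10 windows were found, each 250 bases before a start and 50 after it. SMOX, PAOX and AZIN1 had no window and were not searched. ARG2 and a pair of genes that had lower signals with it, SRM and ODC1, are shown, each 5′ to 3′ on the strand of its gene, because they hold motifs that few windows hold. In the ARG2 promoter (chr14:67619670-67619919, plus strand, the 250 bases before the start) capitals mark TGACGTCA, the cAMP response element. In the SRM promoter (chr1:11060019-11060268, minus strand, the 250 bases before the start) and in ODC1 (chr2:10447993-10448092, minus strand, 100 bases around its more downstream start) capitals mark CACGTG, the E-box that MYC and related factors bind.
ARG2: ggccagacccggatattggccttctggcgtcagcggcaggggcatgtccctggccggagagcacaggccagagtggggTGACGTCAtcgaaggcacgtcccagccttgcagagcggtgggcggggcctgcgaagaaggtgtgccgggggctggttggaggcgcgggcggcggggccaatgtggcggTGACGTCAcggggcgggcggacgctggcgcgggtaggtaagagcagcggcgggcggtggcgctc
SRM: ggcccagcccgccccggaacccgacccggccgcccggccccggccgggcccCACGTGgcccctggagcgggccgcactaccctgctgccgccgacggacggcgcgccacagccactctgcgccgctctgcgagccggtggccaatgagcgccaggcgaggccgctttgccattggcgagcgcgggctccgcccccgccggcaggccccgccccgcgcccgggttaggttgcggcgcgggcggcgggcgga
ODC1: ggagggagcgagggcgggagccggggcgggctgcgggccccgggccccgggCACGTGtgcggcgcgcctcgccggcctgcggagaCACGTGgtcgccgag

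ARG2 held TGACGTCA at 2 places, bases -172 to -165 and -64 to -57 from the start, and none of the other 6 genes with a window held it, so that 1 of the 10 windows held it, where 1.85% of all 35116 windows did. This motif was searched after the sequence had been read. CACGTG was held by 2 of the 10 windows, 1 each of SRM (bases -199 to -194) and ODC1 (bases -29 to -24 and 6 to 11 of the downstream start, the first of them 286 bases downstream of the other ODC1 start), where 7.26% of all windows held it. Of the other motifs searched on both strands, the AP-1 motif TGACTCA was in none of the 10 windows (4.95% of all windows), the ETS motif CCGGAAG was in that of SAT1 (10.3%), TATAAA was in that of OAZ1 (11.5%) and the GC box GGGCGG was in 9 of the 10 windows, which belong to 6 genes (45.0% of all windows). Some windows overlap, as the AMD1 windows that start at chr6:110874534 and chr6:110874535 do, and these hold the same GC box. The matches describe the letters of the windows, and factor binding was not measured.

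Among the enzymes that build spermidine and spermine, SRM differed from AMD1 and SMS. SRM, which makes spermidine, had a signal of 624.5 with gefitinib and 1828.1 with DMSO at 201516_at, 2.93-fold lower (log2 ratio -1.55). It stood at 211 of the 10190 genes from the lowest, and it was at least 2-fold lower under each of the 10 alternative settings. SMS, which makes spermine, had 2633.1 with gefitinib and 3757.8 with DMSO at 202043_s_at, 1.43-fold lower (log2 ratio -0.51). The difference in log2 ratio, SRM minus SMS, was thus -1.04, although each rests on a single probe set. AMD1, which makes the aminopropyl donor for both, had probe sets in opposite directions. At 201197_at its signal was 1689.9 with gefitinib and 1470.1 with DMSO, 1.15-fold higher (log2 ratio 0.20), and at 201196_s_at it was 471.4 with gefitinib and 627.5 with DMSO, 1.33-fold lower (log2 ratio -0.41). The direction of AMD1 was therefore not settled by these arrays, and the mean over both probe sets was -0.11. RefSeq names 4 pseudogenes after AMD1, 3 after SRM and 1 each after ARG2, SMS and OAZ1. Of the genes named further below, only ASS1, AHCY, EIF5A, ADI1, PRODH, SLC25A29 and CBS were looked up. RefSeq names 14 pseudogenes after ASS1, 8 after AHCY, 3 each after EIF5A and ADI1, and 0 after PRODH, SLC25A29 and CBS. Whether the probe sets tell these pseudogenes from their parent genes was not tested.

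**Figure D2:**
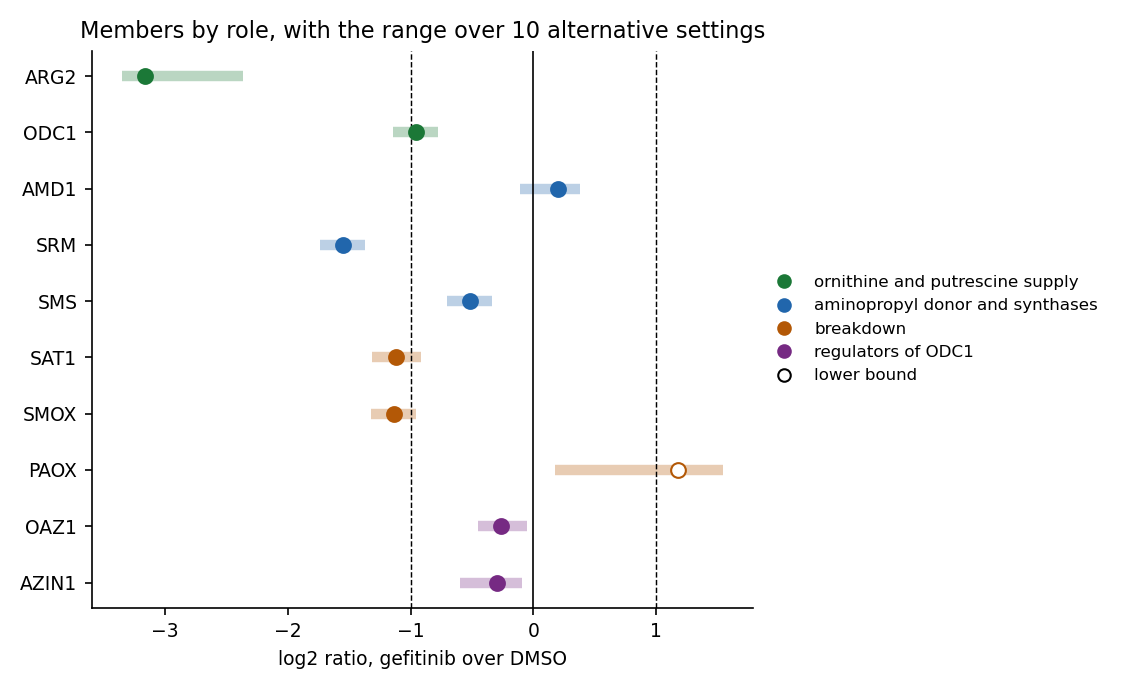
Log2 ratio (horizontal axis, gefitinib over DMSO) at the brightest probe set of each gene, coloured by role, 1 array per condition; pale bars span the 10 alternative settings and dashed lines mark 2-fold. ARG2 and SRM stay to the left of the 2-fold line over their whole bars, while the PAOX value, an open circle, is a lower bound and its bar crosses the 2-fold line.

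The breakdown enzymes went in different directions. SAT1, which acetylates spermidine and spermine and is the rate-limiting enzyme of breakdown, was lower with gefitinib at all 3 of its measured probe sets. At 210592_s_at the signal was 13108.6 with gefitinib and 28532.6 with DMSO, 2.18-fold lower (log2 ratio -1.12). At 213988_s_at it was 10300.4 with gefitinib and 30777.7 with DMSO, 2.99-fold lower, and at 203455_s_at it was 9170.6 with gefitinib and 15269.4 with DMSO, 1.67-fold lower. The direction was thus shared by the 3 probe sets, but the 2-fold threshold was passed at 210592_s_at by a small margin. Its log2 ratio was -0.94 with quantile normalization, -0.99 with centring on control probe sets, -0.95 with scaling to GAPDH and -0.92 with lowess correction.

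SMOX, the oxidase that converts spermine back to spermidine, was also lower with gefitinib. At 210357_s_at its signal was 407.0 with gefitinib and 892.5 with DMSO, 2.19-fold lower (log2 ratio -1.13). At 1555680_a_at it was 72.4 with gefitinib and 262.6 with DMSO, at least 2.63-fold lower, since the gefitinib signal was under the floor. The last SMOX probe set, 217074_at, was below the floor on both arrays. With the arrays scaled to GAPDH the log2 ratio of 210357_s_at was -0.96, inside 2-fold.

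PAOX, the peroxisomal oxidase that acts on the acetylated polyamines made by SAT1, was the only one of the 10 genes at least 2-fold higher with gefitinib. At 50400_at its signal was 225.9 with gefitinib and 77.5 with DMSO, at least 2.26-fold higher, and at 221941_at it was 171.3 with gefitinib and 53.7 with DMSO, at least 1.71-fold higher. Both probe sets were under the floor with DMSO and above it with gefitinib. The others, 238333_s_at (43.5 with gefitinib and 7.5 with DMSO) and 238334_at (3.2 with gefitinib and 3.7 with DMSO), stayed under it on both. The PAOX signals were thus low, and the count rests on 50400_at alone. With a floor of 200 its bound fell to a log2 ratio of 0.18, and the mean of the bounds of both measured probe sets was 0.98. The difference in log2 ratio between these oxidases, SMOX minus PAOX, was -2.31 or further from 0, since the PAOX value is a bound.

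The regulators of ODC1 protein differed little between the arrays. OAZ1, the antizyme, had a signal of 19495.7 with gefitinib and 23394.1 with DMSO at 200077_s_at, 1.20-fold lower (log2 ratio -0.26), and of 17216.7 with gefitinib and 20086.0 with DMSO at 215952_s_at, 1.17-fold lower (log2 ratio -0.22). Both probe sets gave nearly the same ratio. The first of them is also among the 100 probe sets that the array sets aside for normalization, whose mean log2 ratio was -0.13. AZIN1, an inactive relative of ODC1 that binds antizyme, had 9087.7 with gefitinib and 11127.1 with DMSO at 212461_at, 1.22-fold lower (log2 ratio -0.29). At 201772_at it had 3586.6 with gefitinib and 6682.4 with DMSO, 1.86-fold lower (log2 ratio -0.90). The AZIN1 probe sets thus shared their direction but differed by 0.61, and its last, 213747_at, was below the floor on both arrays. Antizyme is made through a ribosomal frameshift that polyamines promote, a step that the array does not see.

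**Figure D3:**
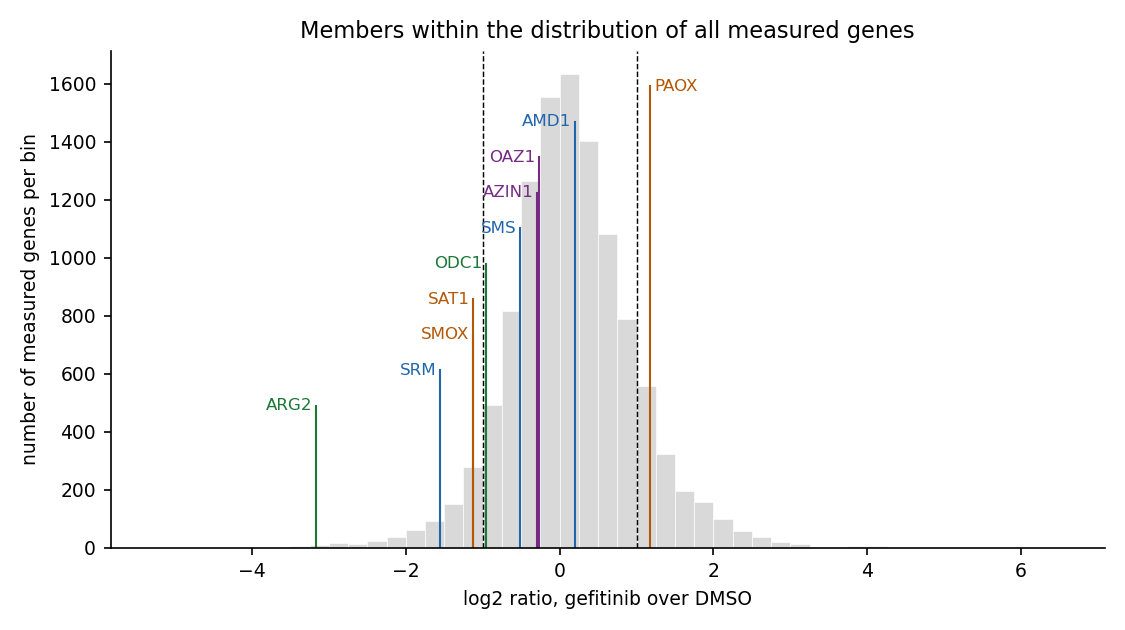
Number of measured genes (vertical axis) in bins of the log2 ratio of gefitinib over DMSO (horizontal axis) for 11223 genes, 1 array per condition, with the 10 genes as coloured lines whose height has no meaning; dashed lines mark 2-fold. ARG2, at -3.16, lies in the left tail, and OAZ1, AZIN1 and AMD1 lie in the bulk of the distribution.

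At their brightest probe sets, close relatives of the 10 genes were within 2-fold or below the floor. SAT2, a relative of SAT1, had 5691.4 with gefitinib and 3728.2 with DMSO, 1.53-fold higher (log2 ratio 0.61), and the difference in log2 ratio, SAT1 minus SAT2, was -1.73. OAZ2, a second antizyme, had log2 ratios of 0.02 at 201364_s_at and 0.45 at 201365_at. Its ratio at 201364_s_at was -0.17 with spike-in scaling, so its direction was not settled. OAZ3, an antizyme known from testis, was below the floor on both arrays. AZIN2, a second antizyme inhibitor, had 252.7 with gefitinib and 248.9 with DMSO at its brightest probe set (log2 ratio 0.02, between -0.19 and 0.20 over the scalings). Its other probe set had 198.7 with gefitinib and 76.3 with DMSO, a lower bound of 0.99 on the log2 scale. Being a bound, this value does not place that probe set within 2-fold.

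Of 18 other genes for enzymes that make or use arginine, ornithine and proline, 9 were measured. None of the 9 was at least 2-fold lower, where 6.20% of all measured genes were, and 3 were at least 2-fold higher, where 13.3% were. With so few genes these counts set the list apart in neither direction, and their median log2 ratio was 0.31, against 0.12 over all measured genes. ASS1, which with ASL makes arginine from citrulline, had 8788.0 with gefitinib and 1967.6 with DMSO, 4.47-fold higher (log2 ratio 2.16). PRODH, the mitochondrial proline dehydrogenase, had 2310.4 with gefitinib and 254.8 with DMSO, 9.07-fold higher (log2 ratio 3.18). CPS1, which feeds ammonia into the urea cycle, had 233.6 with gefitinib and 78.3 with DMSO, at least 2.34-fold higher, a bound that fell to a log2 ratio of 0.22 with a floor of 200, and its other probe set gave a bound of 0.10. ASL had a log2 ratio of -0.32. OAT, which turns ornithine toward proline and glutamate, had 21656.0 with gefitinib and 24824.2 with DMSO (log2 ratio -0.20), and this ratio ran from -0.39 to 0.02 over the scalings. The nitric oxide synthases NOS1, NOS2 and NOS3, which compete with arginase for arginine, and OTC were below the floor on both arrays.

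Of 10 transporters of cationic amino acids and ornithine 5 were measured, with a median log2 ratio of 0.35, where that of all measured genes was 0.12. None was at least 2-fold lower and 1 was at least 2-fold higher, a count near the 13.3% of all measured genes. This was SLC25A29, a mitochondrial carrier of basic amino acids, with 782.3 with gefitinib and 177.7 with DMSO at 225305_at, 4.40-fold higher (log2 ratio 2.14). Its other measured probe set, 225306_s_at, had 376.9 with gefitinib and 182.6 with DMSO (log2 ratio 1.05). SLC7A1, the main arginine importer of many cells, had log2 ratios of 0.63, -0.10 and -0.35 at its 3 measured probe sets, in different directions. SLC3A2, the heavy chain of several amino acid transporters, had a log2 ratio of -0.44.

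Of 18 genes that regulate or transport polyamines or use spermidine to make hypusine, 9 were measured. None of the 9 differed by 2-fold at its brightest probe set (median log2 ratio 0.02, against 0.12 over all measured genes). As 6.20% of all measured genes were lower and 13.3% higher by 2-fold, a count of 0 among 9 does not set this list apart. EIF5A, the translation factor that carries hypusine, had 17801.2 with gefitinib and 30416.5 with DMSO at its brightest probe set, 1.71-fold lower (log2 ratio -0.77), and a ratio of -1.17 at 213753_x_at. DHPS, which transfers the aminobutyl group of spermidine to EIF5A, had a log2 ratio of -0.70, and DOHH, which completes hypusine, had -0.51. Over the alternatives EIF5A ran from -0.96 to -0.56 and DHPS from -0.89 to -0.53. The other measured DHPS probe sets had log2 ratios of -0.79 (211558_s_at) and -0.32 (202802_at). ATP13A3 had a log2 ratio of 0.15 at its brightest probe set, but a mean of -0.63 over its 2 measured probe sets. Its probe sets thus went in different directions, and the one that is not the brightest was more than 2-fold lower with gefitinib.

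The methionine cycle, which supplies the S-adenosylmethionine that AMD1 uses, and the salvage of the methylthioadenosine that SRM and SMS release, had 13 measured genes of 17, with a median log2 ratio of -0.02. Of these, 1 was lower and 1 higher by at least 2-fold, near the shares of 6.20% lower and 13.3% higher among all measured genes. At least 2-fold lower was ADI1, a dioxygenase of the salvage pathway, with 4249.0 with gefitinib and 9440.4 with DMSO at 222400_s_at, 2.22-fold lower (log2 ratio -1.15). Its second measured probe set had -0.50, and the value of 222400_s_at was -0.98 when scaled to GAPDH. AHCY, which clears S-adenosylhomocysteine, had 5176.1 with gefitinib and 10135.2 with DMSO, 1.96-fold lower (log2 ratio -0.97), and it passed 2-fold (-1.16) with spike-in scaling. At least 2-fold higher was CBS, which takes homocysteine out of the cycle, with 813.7 with gefitinib and 222.6 with DMSO at 212816_s_at, 3.66-fold higher (log2 ratio 1.87). MAT2A and MAT2B, which make S-adenosylmethionine, had log2 ratios of -0.10 and -0.02 at their brightest probe sets, and the mean over the MAT2A probe sets was -0.52. MTAP, which starts the salvage, was below the floor on both arrays.

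**Figure D4:**
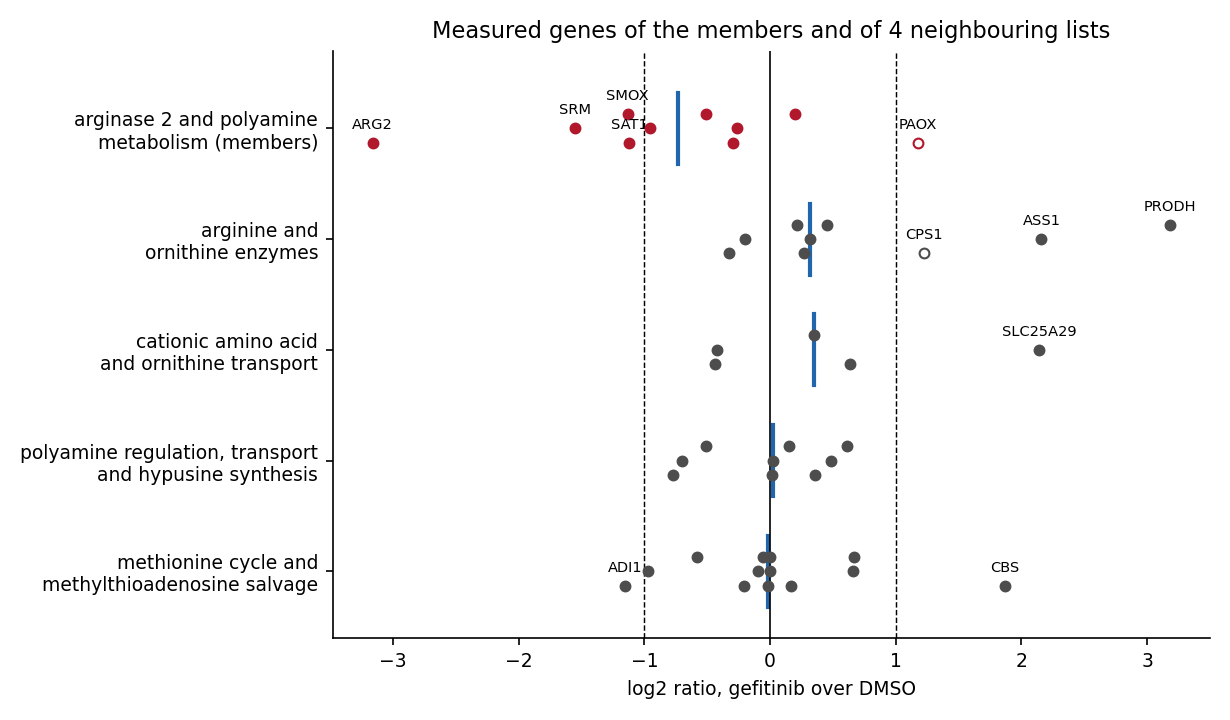
Log2 ratio (horizontal axis, gefitinib over DMSO) of all measured genes of arginase 2 and polyamine metabolism (red, 10 genes) and of 4 neighbouring lists (dark grey), 1 array per condition; open points are lower bounds, blue bars are medians, dashed lines mark 2-fold and genes past it are named. The medians are -0.73 for the 10 genes and 0.31, 0.35, 0.02 and -0.02 for the lists from top to bottom.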

How the data were processed

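RNA of H322c cells treated with gefitinib or DMSO was measured on 1 Affymetrix U133 Plus 2.0 array each, and the arrays were assigned from the sample labels. The authors deposited signal intensities on a linear scale, already scaled. The submitters' processing notes name MAS5 (version not given in the sources used here). Both arrays share a trimmed mean, so a general rise or fall of RNA cannot be seen. No detection calls were used, and precision is limited by having 1 array per condition.

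The platform annotation gave 41097 of 54675 probe sets a single gene, with 1801 naming several and 11777 not listed. The symbols of 41043 probe sets were matched to RefSeq (GRCh38.p14) through gene identifiers. A floor of 100 was applied, and ratios on the log2 scale, gefitinib over DMSO, were taken at the brightest measured probe set of each gene. The 10 genes and the neighbouring lists were chosen with earlier results of these data known. Named from each list were all measured genes past 2-fold and up to 3 with the largest absolute log2 ratio, and beside ARG2 the nearest 2 genes on either side. ASL, OAT, DOHH, ATP13A3, MAT2A, MAT2B, the relatives of the 10 genes and the genes listed as below the floor were named outside this rule, after their values were seen.

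Alternatives were quantile normalization, centring on 100 normalization-control probe sets, scaling to GAPDH or to the spike-ins, lowess correction (span 0.3), other floors (50 and 200), an offset of 50 with no floor, the mean over probe sets, omission of _x_at probe sets, and other fold thresholds (1.5 and 3). Simulated arrays with known folds were used as a test of the code for these steps. Their noise was set below the SD of 0.54 between probe sets of a gene, and folds were planted only in genes well above the floor. They therefore give no error for the values reported here. Tools were matplotlib 3.10.9, statsmodels 0.14.6, numpy 2.4.6, scipy 1.17.1 and pandas 2.3.3 under Python 3.11.15.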

Additional observations from a re-analysis of the deposited data

How the results depend on the processing

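The log2 ratio of ARG2 was -3.16, and at least 2-fold lower under all 10 alternative settings, but it moved to -2.37 as the mean over its probe sets. The number of the 10 genes at least 2-fold lower was 4. It was 2 (ARG2 and SRM) when the arrays were scaled to GAPDH, 1 (ARG2) with a fold threshold of 3, and between 3 and 5 under the others. The number at least 2-fold higher was 1 (PAOX), and it was 0 with a floor of 200, with the mean over probe sets and with a fold threshold of 3. For PAOX a higher floor lowers the bound by construction. The median log2 ratio of the 10 genes ran from -0.92 with spike-in scaling to -0.56 with scaling to GAPDH, where the median of all measured genes was -0.06 with spike-in scaling and 0.28 with GAPDH (0.24 with centring on controls), against 0.12 as deposited. The bound of PAOX moved to 0.18 with the floor of 200. Among the 10 genes the sign was kept throughout, other than that of AMD1 with the mean over probe sets. No paired analysis was possible because each condition has 1 array, and for the same reason no array could be left out.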
